A study of Arabidopsis thaliana with 9 samples.

Results

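The genes described here are 43 nuclear genes of Arabidopsis thaliana that encode proteins of the 2 photosystems and their light-harvesting antennae, out of 30361 genes on a NimbleGen expression array. They were chosen by locus: 21 antenna genes (15 LHCB genes for photosystem II and 6 LHCA genes for photosystem I), 12 subunits of photosystem I (PSA genes) and 10 subunits of photosystem II (PSB genes). All 43 loci were on the array, and all 43 carried the symbol in the reference annotation. No filter on low signal was applied, so every gene is counted below. The study mapped where FIE, a core subunit of the Polycomb repressive complex PRC2, sits in the genome, and used the arrays to ask which genes change when PRC2 is impaired.

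RNA came from whole seedlings grown for 12 days on agar plates at 22 °C with 16 h of light and 8 h of dark. There were 3 groups of 3 arrays, each array from its own pool of 10 to 12 plants. The clf swn group carried mutations in both CLF and SWN, the histone methyltransferases of vegetative PRC2, named clf-7 swn-28 in the sample titles and swn-7 clf-28 in the growth protocol; these plants are sterile and were picked from the progeny of parents heterozygous for the clf mutation. The siFIE group carried an RNAi construct against FIE and consisted of first-generation transformants of intermediate phenotype, selected on kanamycin at 50 mg/L, in which FIE mRNA was at most 10% of wildtype. The third group was wildtype Col. The labels place siFIE in the C24 ecotype and the methods in Col, and every wildtype array here is Col. Col and clf swn plants were not described as grown on kanamycin. In siFIE, against either other group, a difference of ecotype, growth on kanamycin and the effect of the construct therefore cannot be told apart.

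Photosystem II splits water and photosystem I reduces ferredoxin, and both are fed by proteins that bind chlorophyll. LHCB1, LHCB2 and LHCB3 form the trimers of the major antenna LHCII, LHCB4 to LHCB6 are the monomeric minor antennae between the trimers and the core, and LHCA1 to LHCA4 form a belt on one side of photosystem I. The reaction centre proteins are encoded in the plastid, whereas the antennae and many peripheral subunits are encoded in the nucleus, where their transcripts are among the most abundant of green tissue and follow light and the state of the chloroplast. PRC2 places the repressive mark H3K27me3, so loss of PRC2 is known chiefly for releasing genes, above all developmental regulators.

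The values are RMA signals, in which the probes of a gene are combined and the arrays brought to a shared distribution. They have no unit and are compared only between arrays, for the same gene, the same ratio of genes or a sum over the same genes. Such a sum is set mostly by its brightest genes. Changes are differences of log2 RMA signal with the standard error of the fit. A gene was called where it changed more than 2-fold and its p from limma, adjusted for all 30361 tests by the method of Benjamini and Hochberg, was under 0.05. Counts of genes that fell or rose are counts of called genes. The targeted genes followed the labels. FIE had a signal of 282 ± 38.3 in siFIE against 1843 ± 115 in Col (SD, n = 3 each), while SWN had 230 ± 144 and CLF 4014 ± 378 in clf swn, against 11448 ± 236 and 11640 ± 783 in Col. Arrays of 1 genotype correlated at r = 0.991 to 0.994 across genes and arrays of different genotypes at 0.915 to 0.978, no array standing apart from its group.

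In clf swn nearly the whole set was down-regulated. Of the 43 genes 37 were called lower than in Col and 1 higher, against 12.8% and 8.78% of all genes on the array, and the median change was -2.02 on the log2 scale, against 0.05 over all genes. On all 3 clf swn arrays 42 of the 43 genes lay below every Col array, which was so for 26.4% of all genes. Since 37 of the 43 genes belong to the 7591 genes with the highest Col signal, those are the closer background: 14.6% of them were called lower and their median was -0.03. The genes not called were LHCB1.2, LHCB1.3, LHCB7, PSBS and PSBX. Their estimates lay between -0.96 for PSBS and -0.37 for PSBX, with adjusted p of 0.0003 and 0.038 in limma, and each missed the fold threshold only. In a whole seedling, fewer green cells and less of these RNAs per cell cannot be told apart.

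**Figure D1:**
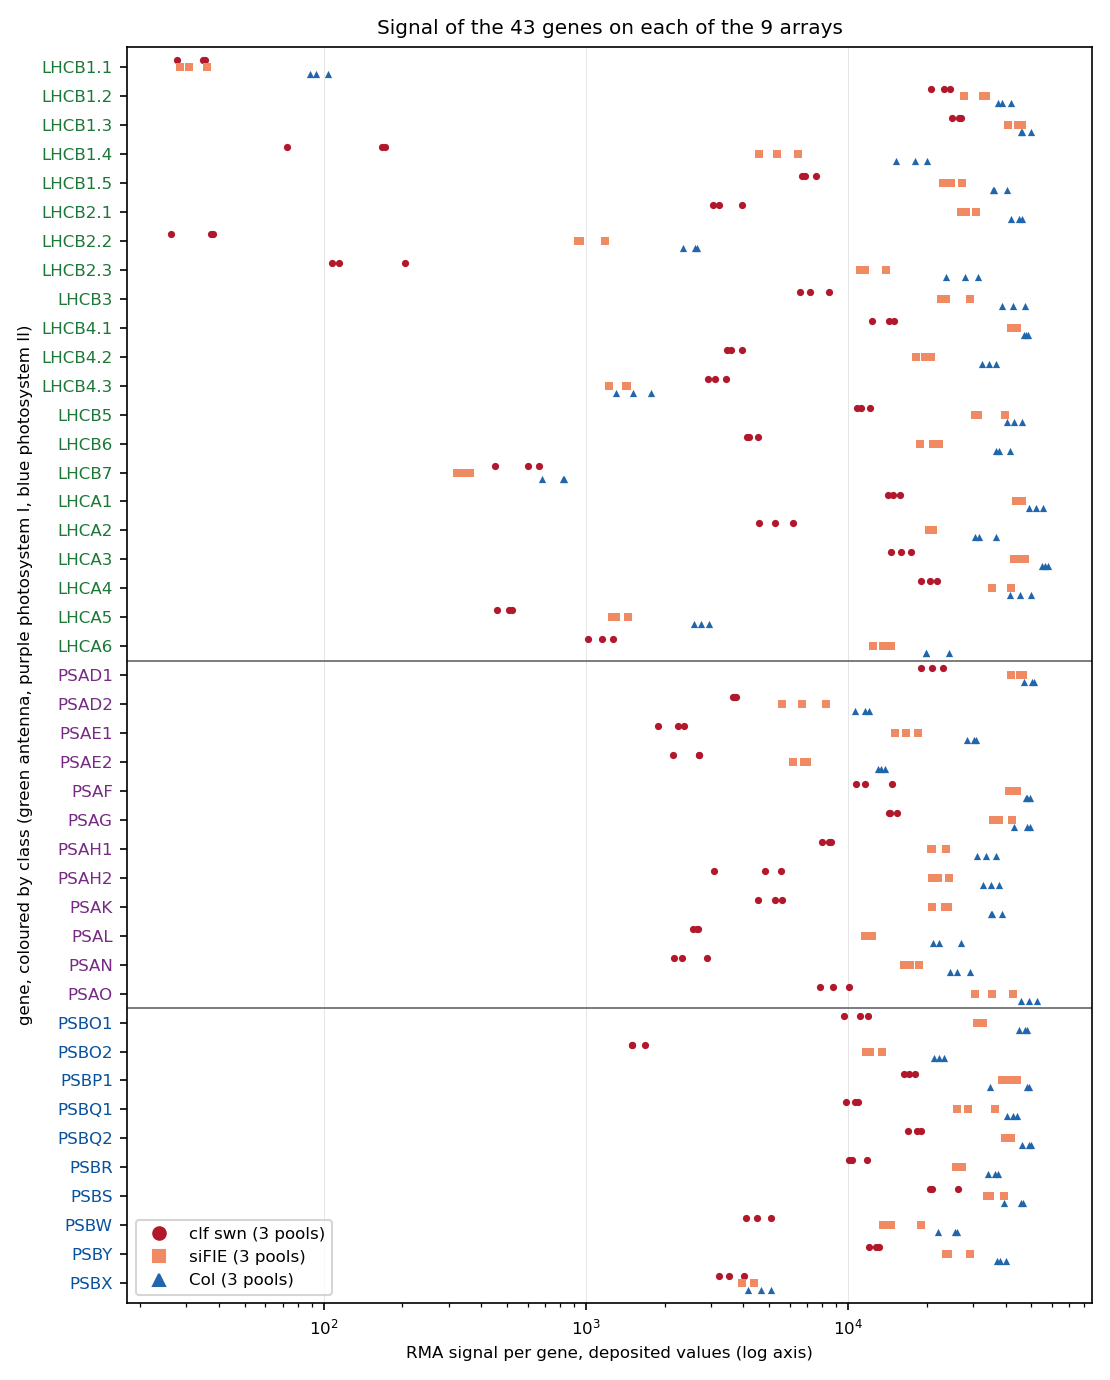
RMA signal (log axis) of the 43 genes, 1 row per gene, on each of the 9 arrays: circles are clf swn pools, squares siFIE pools and triangles Col pools, 3 each. For 42 genes all circles lie left of all triangles, LHCB4.3 is the exception, and the squares lie mostly between them, with LHCB1.4, LHCB2.2 and LHCB2.3 showing the widest spacing.

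The largest falls were in the major trimeric antenna. LHCB2.3 (AT3G27690) had signals of 115, 108 and 205 in the clf swn pools, 13939, 11592 and 11116 in the siFIE pools and 28125, 23659 and 31442 in Col. LHCB1.4 (AT2G34430) had 171, 167 and 72.7 in clf swn, 6466, 4578 and 5365 in siFIE and 15297, 18024 and 20085 in Col. LHCB2.2 (AT2G05070) had 37.3, 26.2 and 38.0 in clf swn, 1184, 949 and 937 in siFIE and 2667, 2359 and 2617 in Col. In each of these genes the 3 groups were fully separate, with siFIE between clf swn and Col.

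Against Col the fall in clf swn was 202-fold for LHCB2.3 (log2 -7.66 ± 0.24 SE, limma adjusted p = 1.5e-08), 138-fold for LHCB1.4 (log2 -7.11 ± 0.31, adjusted p = 1.1e-07) and 76.2-fold for LHCB2.2 (log2 -6.25 ± 0.17, adjusted p = 6.6e-09). They held places 9, 19 and 34 among the falls of all 30361 genes. These sizes depend on how background was treated, because the clf swn signals had reached the dim end of the arrays: both LHCB2.2 probes and 1 of the 2 LHCB1.4 probes were under the 20th percentile of all probes on all 3 clf swn arrays, and on no Col array. From probe signals with no background correction the falls came to 64.4-fold for LHCB2.3, 36.4-fold for LHCB1.4 and 9.92-fold for LHCB2.2, and all 3 were still called.

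The measured changes of the other LHCII genes were uneven across a family of close copies. Over all 9 genes of the trimers the median change in clf swn was -2.54. LHCB2.1, the third LHCB2 gene, fell 13.1-fold (log2 -3.71 ± 0.13, limma adjusted p = 2.4e-08), LHCB3 5.81-fold and LHCB1.5 5.31-fold in clf swn. LHCB1.2 averaged 22902 ± 1938 in clf swn, 31417 ± 3206 in siFIE and 39410 ± 2150 in Col (SD, n = 3 each), and LHCB1.3 averaged 26193 ± 995 in clf swn, 43763 ± 2769 in siFIE and 47382 ± 2384 in Col. Both lay lower on every clf swn array than on any Col array, by 1.72-fold and 1.81-fold, which is short of the 2-fold threshold. For LHCB1.2 the probe at position 279, which was saturated on 3 arrays, changed by -0.37 in clf swn. The LHCB1.2 probe at position 526, saturated on none, changed by -1.18. The part of saturation in the fold of LHCB1.2 was not tested.

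LHCB1.1 (AT1G29920) was the dimmest gene of the set. Its signals were 27.5, 34.7 and 35.3 in clf swn, 28.3, 35.9 and 30.7 in siFIE, and 89.0, 93.5 and 104 in Col. The pools of both mutants were below those of Col and overlapped each other, and the gene was called lower in clf swn (log2 -1.56 ± 0.14, limma adjusted p = 1.7e-05) and in siFIE (log2 -1.60 ± 0.14, adjusted p = 7.5e-05). Its 2 probes were under the 20th percentile of all probes on every array of both mutants, and with no background correction the changes shrank to -0.41 and -0.42, which were not called. LHCB1.1, LHCB1.2 and LHCB1.3 lie next to each other in the genome, as do LHCB1.4 and LHCB1.5, and these genes are known to be near-identical. The sequences of the probes were not used here, so binding of one copy's RNA to the probes of another could not be checked. This holds for the LHCB1 and the LHCB2 copies, and the values of their single genes are uncertain to that extent.

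Among the minor antennae 4 of 5 genes fell in clf swn and 1 rose, with a median of -1.92. Of all genes 12.8% fell and 8.78% rose. LHCB4.2 fell 9.46-fold and LHCB6, which encodes CP24, fell 9.01-fold, while LHCB5, which encodes CP26, fell 3.80-fold. LHCB4.1 (AT5G01530), a gene for CP29, had signals of 12345, 14980 and 14382 in clf swn, 42893, 41953 and 44088 in siFIE and 47839, 48672 and 46898 in Col, a fall of 3.45-fold in clf swn (log2 -1.79 ± 0.11, limma adjusted p = 1.1e-06). Of its 3 probes those at positions 648 and 870 fell by 1.69 and 1.77 on the log2 scale in clf swn, and the dim probe at position 32 was higher by 0.75. From background-corrected probe signals, where each probe counts alike, LHCB4.1 changed by -0.90 and was not called.

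LHCB4.3 (AT2G40100) moved the other way. Its signals were 2925, 3429 and 3125 in clf swn, 1230, 1438 and 1426 in siFIE and 1779, 1308 and 1514 in Col. All clf swn pools were above all others, as 30.0% of all genes were against Col, and siFIE and Col overlapped. LHCB4.3 rose 2.07-fold in clf swn against Col (log2 1.05 ± 0.14, limma adjusted p = 0.00021), and it was the only one of the 43 genes with a higher estimate; in siFIE its estimate was -0.16 ± 0.14 (adjusted p = 0.48). Both its probes were higher in clf swn, by 0.91 and 0.83. The rise stood close to the 2-fold threshold and was 0.99 without pool 2 of clf swn and 0.94 without pool 2 of Col, where it was no longer called. Nor was it called in any of the 4 fits on probe signals, where it was 0.87 to 0.98. LHCB4.3 is known as an atypical CP29 gene, also named LHCB8, that responds to light stress.

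LHCB7 (AT1G76570), a rarely expressed antenna-like gene, had the larger fall in siFIE. Its signals were 603, 452 and 665 in clf swn, 343, 363 and 322 in siFIE and 827, 816 and 679 in Col. Every clf swn pool was below every Col pool and above every siFIE pool. The change was -0.45 ± 0.16 in clf swn (limma adjusted p = 0.044, not called) and -1.17 ± 0.16 in siFIE (adjusted p = 0.00084, called), and the difference between the mutants was 0.73 ± 0.16 (adjusted p = 0.0052). From probe signals the change of LHCB7 in siFIE was -0.78 with background correction and quantile normalization and -0.63 without correction, neither of them called, and the difference between the mutants 0.47 and 0.36. Its 3 probes did not move as one in clf swn: the dimmest changed by 0.03 and the others by -0.30 and -0.53.

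All 6 LHCA genes fell in clf swn, against 12.8% of all genes, with a median of -2.15. Of the belt, LHCA2 fell 6.21-fold, LHCA3 3.54-fold, LHCA1 3.49-fold and LHCA4 2.22-fold. LHCA5 and LHCA6, which are present in small amounts and are known to link photosystem I to the chloroplast NDH complex, fell 18.6-fold (LHCA6, log2 -4.22 ± 0.13, limma adjusted p = 1.6e-08) and 5.56-fold (LHCA5). LHCA5 (AT1G45474) had 458, 525 and 511 in clf swn, 1309, 1447 and 1262 in siFIE and 2745, 2587 and 2968 in Col, and it was the only LHCA gene also called in siFIE (log2 -1.05 ± 0.11, adjusted p = 0.00023).

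Of the photosystem I subunits 12 of 12 fell in clf swn, against 12.8% of all genes, with a median change of -2.44. PSAE1, PSAN and PSAL changed most. PSAE1 (AT4G28750), on the stromal side where ferredoxin docks, had 2259, 2376 and 1890 in clf swn, 18546, 15188 and 16613 in siFIE and 28425, 30817 and 30319 in Col. PSAN (AT5G64040), a lumenal subunit on the plastocyanin side, had 2896, 2179 and 2336 in clf swn, 18696, 16381 and 17226 in siFIE and 24510, 29283 and 26137 in Col. PSAL (AT4G12800), which is needed for LHCII to dock on photosystem I, had 2682, 2563 and 2656 in clf swn, 12392, 11603 and 12205 in siFIE and 21180, 22204 and 27133 in Col.

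The 3 groups were separate in each of these genes, with falls in clf swn of 13.8-fold for PSAE1 (log2 -3.78 ± 0.13, limma adjusted p = 2.3e-08), 10.8-fold for PSAN (log2 -3.44 ± 0.14, adjusted p = 6.5e-08) and 8.87-fold for PSAL (log2 -3.15 ± 0.12, adjusted p = 4.7e-08). By position in the complex the medians were -2.02 over the 4 ferredoxin-side genes (PSAD1, PSAD2, PSAE1, PSAE2), -2.71 over the plastocyanin-side genes PSAF and PSAN, -2.74 over the 4 genes of the LHCII docking side (PSAH1, PSAH2, PSAL, PSAO) and -2.25 over PSAG and PSAK, which lie next to the LHCA belt. The genes in between fell by 3.10-fold for PSAD2 to 8.08-fold for PSAH2 in clf swn, with PSAK at 7.11-fold, PSAO at 5.52-fold, PSAE2 at 5.34-fold, PSAH1 at 4.05-fold, PSAF at 3.95-fold and PSAG at 3.17-fold. PSAD1 (AT4G02770) changed least of the 12, with 23172, 20891 and 19033 in clf swn, 45307, 41966 and 46724 in siFIE and 51204, 46916 and 50258 in Col, a fall of 2.36-fold in clf swn (log2 -1.24 ± 0.11, adjusted p = 1.7e-05).

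All 10 photosystem II subunits were lower on every clf swn array than on any Col array, as 26.4% of all genes were. Of the 10 subunits 8 were called, against 12.8% of all genes, and their median over the 10 was -1.67. All 6 genes grouped here with the oxygen-evolving complex (PSBO1, PSBO2, PSBP1, PSBQ1, PSBQ2 and PSBR) were among the called genes. PSBO2 (AT3G50820), one of a pair of genes for the manganese-stabilizing protein, had 1502, 1686 and 1505 in clf swn, 13549, 11731 and 12138 in siFIE and 21352, 23385 and 22252 in Col. Its partner PSBO1 (AT5G66570) had 9668, 11117 and 11984 in clf swn, 31226, 31560 and 32743 in siFIE and 45018, 48446 and 47570 in Col. In clf swn PSBO2 fell 14.3-fold (log2 -3.84 ± 0.11, limma adjusted p = 9.4e-09) and PSBO1 4.32-fold (log2 -2.11 ± 0.11, adjusted p = 4.5e-07). PSBQ1 (4.05-fold), PSBR (3.34-fold), PSBQ2 (2.68-fold) and PSBP1 (2.54-fold) fell less than PSBO1.

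Of the small subunits PSBW (AT2G30570) had 5083, 4523 and 4095 in clf swn, 19078, 13573 and 14578 in siFIE and 22037, 26074 and 25744 in Col, a fall of 5.40-fold in clf swn (log2 -2.43 ± 0.16, limma adjusted p = 1.5e-06), and PSBY fell 3.03-fold. PSBX (AT2G06520) had 4011, 3533 and 3214 in clf swn, 3950, 4378 and 4385 in siFIE and 4662, 5110 and 4157 in Col. The clf swn pools of PSBX were below those of Col and overlapped those of siFIE, and its 2 probes disagreed: the bright one at position 288 changed by -1.50 in clf swn and the dim one at position 12 by 0.56. PSBS, the sensor of excess light that switches on energy quenching, was 1.95-fold lower in clf swn (adjusted p = 0.0003, not called).

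**Figure D2:**
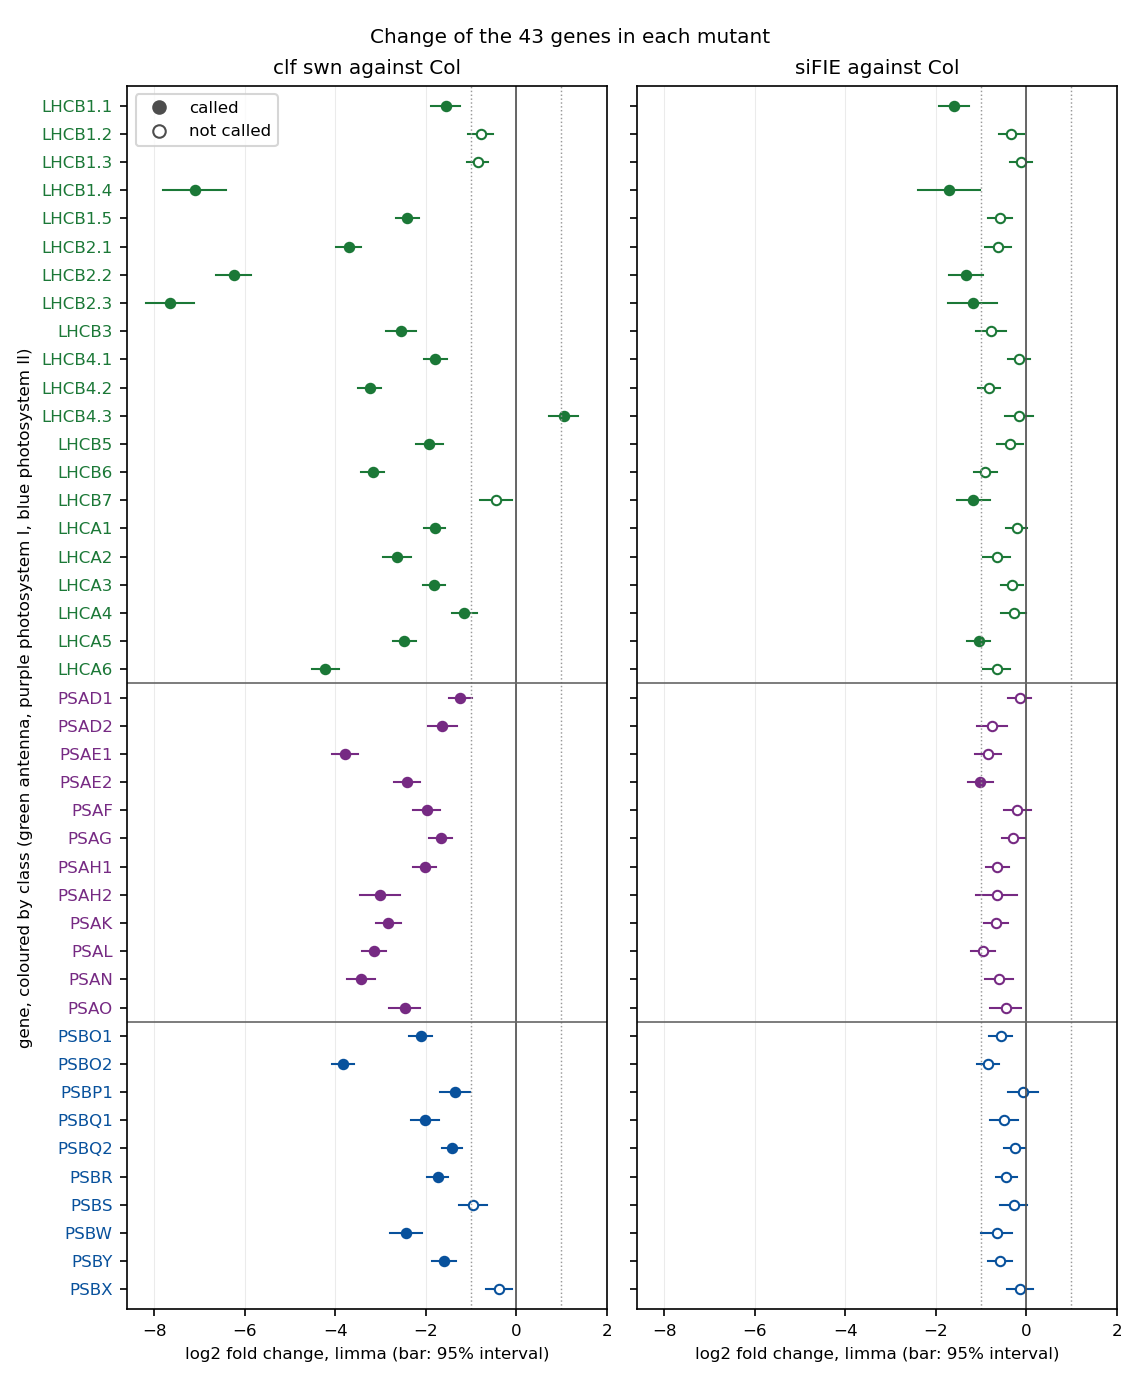
Log2 fold change of the 43 genes in clf swn against Col (left) and siFIE against Col (right) with 95% intervals from limma; filled points were called and open points were not, and dotted lines mark 2-fold. The left panel reaches -7.66 for LHCB2.3 and holds 1 point right of 0 that was called, LHCB4.3, while in the right panel all points are left of 0 and 7 are filled.

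In siFIE the set was also lower, by much less. Of the 43 genes 7 were called lower and 0 higher, against 3.19% and 4.51% of all genes. At an adjusted p under 0.05 alone 27 of the 43 were lower and 0 higher in limma, against 10.0% of all genes lower. The median change was -0.61, against -0.02 over all genes. Of the 7591 genes with the highest Col signal 2.73% were called lower, with a median of -0.02. All 43 estimates were below 0, which was so for 15992 of the 30361 genes, and 38 of the 43 genes were lower on every siFIE array than on any Col array, against 19.2% of all genes. The other 5 were LHCB1.3, LHCB4.3, LHCA4, PSBP1 and PSBX.

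The 7 called genes were LHCB1.1, LHCB1.4, LHCB2.2, LHCB2.3, LHCB7 and LHCA5 of the antenna and PSAE2 of photosystem I. LHCB1.4 fell 3.27-fold in siFIE (log2 -1.71 ± 0.31, limma adjusted p = 0.004), LHCB2.2 2.50-fold (log2 -1.32 ± 0.17, adjusted p = 0.00056) and LHCB2.3 2.27-fold (log2 -1.18 ± 0.24, adjusted p = 0.0073). PSAE2 (AT2G20260), the second gene for the PSAE subunit, had 2711, 2717 and 2157 in clf swn, 6978, 6179 and 6803 in siFIE and 13034, 13342 and 13885 in Col, and its fall of 2.02-fold in siFIE (log2 -1.01 ± 0.12, adjusted p = 0.00045) was barely past the threshold. From probe signals LHCB1.4, LHCB2.2 and LHCB2.3 were called in siFIE in all 4 fits, LHCB1.1, LHCB7 and LHCA5 in none, and PSAE2 only with median scaling (-1.05). On RMA values several genes stood just short of 2-fold: PSAL at -0.95, LHCB6 at -0.90 and PSBO2 at -0.84. All of the 7 except LHCB7 were called lower in clf swn too, as were 78.5% of all 968 genes called lower in siFIE; both comparisons share the Col arrays. By role the medians in siFIE ran from -1.18 for the LHCB2 genes to -0.30 for the LHCA1 to LHCA4 belt, with -0.80 on the ferredoxin side of photosystem I. Among the estimates nearest to 0, with 95% intervals that included 0, LHCB1.3 changed by -0.12 ± 0.10 (limma adjusted p = 0.5), LHCB4.1 by -0.15 ± 0.11 (adjusted p = 0.38), PSAD1 by -0.15 ± 0.11 (adjusted p = 0.42) and PSBP1 by -0.08 ± 0.15 (adjusted p = 0.77). By class 6 of 21 antenna genes (median -0.65), 1 of 12 photosystem I genes (-0.64) and 0 of 10 photosystem II genes (-0.46) were called. Of all genes 3.19% were called lower in siFIE. With so few genes a class, the photosystem I and II counts cannot be set apart from that share. At an unadjusted p under 0.05 with the same fold threshold the photosystem II count was also 0, and without the fold threshold it was 6.

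The direct comparison of the mutants tests whether their changes differ. Of the 43 genes 34 were called lower in clf swn than in siFIE and 1 higher, LHCB4.3 (log2 1.21 ± 0.14, limma adjusted p = 0.00011), against 11.0% and 6.82% of all genes, and the median difference was -1.57. On every array 39 genes were lower in clf swn than in siFIE, against 24.6% of all genes, and LHCB4.3 and LHCB7 were higher, against 27.9%; among the 7591 genes with the highest Col signal 10.8% were called lower. The differences were called for 15 of 21 antenna genes, 11 of 12 photosystem I genes and 8 of 10 photosystem II genes. For LHCB1.1 a difference between the mutants could not be measured, since both its probes were at the dim end of every array of both. For PSBX the difference was -0.25 with an interval of -0.53 to 0.04.

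**Figure D3:**
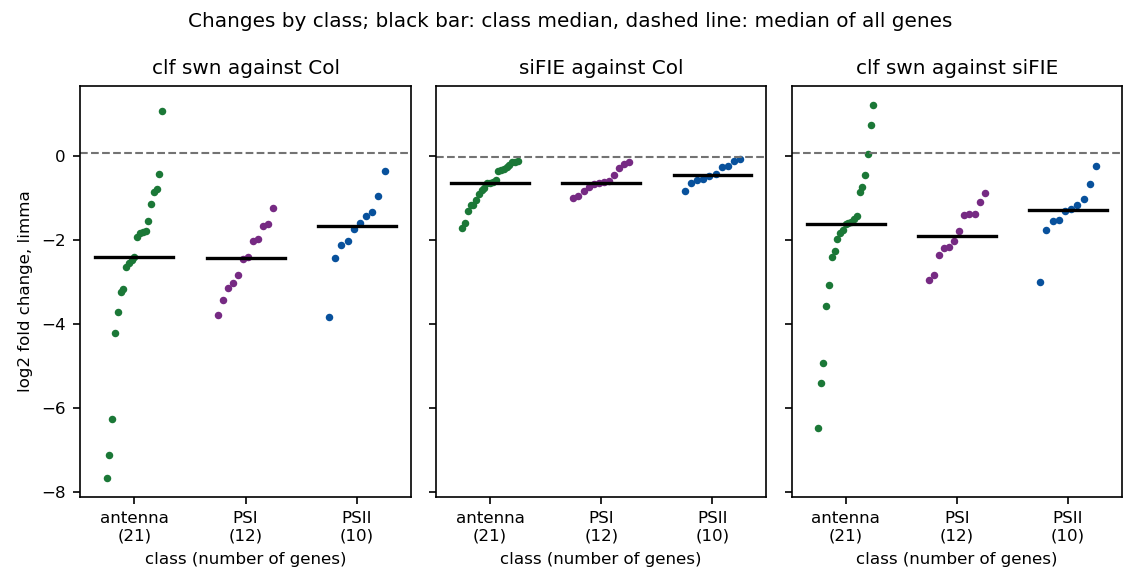
Log2 fold change of each gene by class (21 antenna, 12 photosystem I and 10 photosystem II genes) in the 2 mutants, each against Col, and between the mutants. Black bars are class medians (-2.41, -2.44 and -1.67 in the left panel) and the dashed line is the median of all genes on the array, near 0.

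Set side by side, the antenna had the widest range in clf swn, -7.66 to 1.05, against -3.78 to -1.24 for photosystem I and -3.84 to -0.37 for photosystem II. The class medians taken on each clf swn array, relative to the Col means, were -2.34, -2.40 and -2.31 for the antenna, -2.29, -2.39 and -2.64 for photosystem I and -1.58, -1.69 and -1.75 for photosystem II. Photosystem II genes thus had the smallest median fall on each of the 3 arrays, and antenna and photosystem I overlapped. In siFIE the medians per array were -0.54, -0.71 and -0.66 for the antenna, -0.51, -0.73 and -0.65 for photosystem I and -0.36, -0.49 and -0.48 for photosystem II. No test was made of the difference between classes, since genes are not replicates.

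Brightness moved with this order. The 96 probes of the 43 genes, 2 or 3 a gene, were lower in clf swn in 91 cases and in siFIE in 94. In Col 42 of them had a mean scanner signal over 40000, where the highest value a scanner can give is 65535, and their median change in clf swn was -1.62, against -2.65 for the 54 dimmer probes; in siFIE the medians were -0.29 and -0.77. Bright probes made up 11 of 21 for photosystem II, 20 of 49 for the antenna and 11 of 26 for photosystem I. Among the dimmer probes alone the medians in clf swn were -2.08 for photosystem II, -2.72 for the antenna and -2.74 for photosystem I, and among the bright ones -1.47, -1.73 and -1.63. Within the 40 genes whose probes moved the same way, the brightest probe fell less than the dimmest in 22. No probe of the 43 genes other than the LHCB1.2 probe at position 279 was saturated on any array. The part of probe brightness in the class difference and in the small changes of the brightest genes was not tested.

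For 5 subunits the array carried a pair of genes, and on RMA values the pairs did not fall evenly in clf swn. A pair was followed as the log2 ratio of its genes within each array, relative to the mean ratio in Col. The ratio PSBO1 over PSBO2 stood at 1.61, 1.65 and 1.92 in clf swn, 0.13, 0.35 and 0.36 in siFIE and 0.00, -0.02 and 0.02 in Col, so that on every array of both mutants PSBO2 was further below its Col mean than PSBO1. PSAE1 over PSAE2 stood at -1.42, -1.35 and -1.34 in clf swn, 0.26, 0.14 and 0.13 in siFIE and -0.03, 0.05 and -0.03 in Col, opposite shifts in clf swn and siFIE. PSAH1 over PSAH2 stood at 0.70, 0.78 and 1.51 in clf swn, 0.03, 0.04 and -0.02 in siFIE and -0.01, -0.10 and 0.11 in Col, a shift in clf swn with no separation of siFIE.

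The mean shifts in clf swn were 1.73 for PSBO1 over PSBO2, -1.37 for PSAE1 over PSAE2, 1.00 for PSAH1 over PSAH2, -0.59 for PSBQ1 over PSBQ2 and 0.40 for PSAD1 over PSAD2. In all 5 the clf swn arrays lay fully to one side of the Col arrays, for an exact permutation p of 0.1 (two-sided, n = 3 each). That is the smallest p that 3 against 3 can give, so no shift could pass 0.05. Adjusted over the 15 ratios compared it was 0.125. Such separation was common: of all single genes 26.4% were lower and 30.0% higher on every clf swn array than on any Col array. Its share among ratios of other genes was not computed. Against siFIE 4 of the 5 clf swn ratios were separate, all but PSAD1 over PSAD2, which had shifted by 0.61 in siFIE. From probe signals the shift of PSAD1 over PSAD2 in clf swn was 0.27 with background correction and 0.16 without, and clf swn and Col overlapped in both. By single probes PSBQ1 changed by -0.90 and -2.99 in clf swn and PSBQ2 by -1.47 and -1.29. PSAD1 changed by -1.28 and -1.14 and PSAD2 by -0.91 and -1.82, PSAH1 by -2.69 and -1.19 and PSAH2 by -3.21 and -2.56. In these pairs the order depended on the probe read. Every PSBO2 probe fell more than every PSBO1 probe, and every PSAE1 probe more than every PSAE2 probe.

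**Figure D4:**
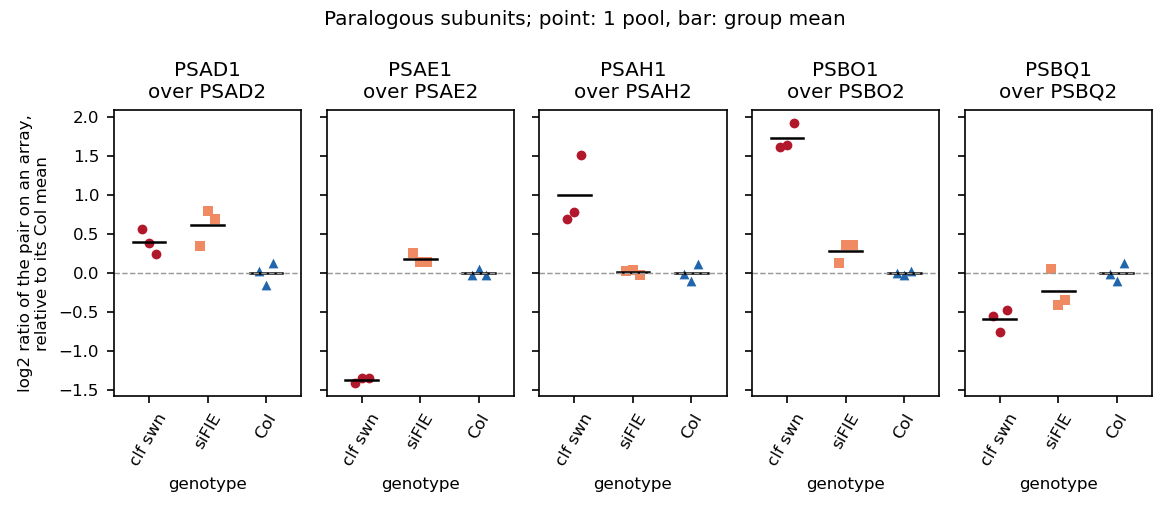
Log2 ratio of paralogous genes within each array, relative to the mean ratio of the Col arrays, for 5 pairs; points are pools of clf swn, siFIE and Col (3 each) and bars are group means. On RMA values the clf swn pools are separate from Col in all 5 pairs, highest for PSBO1 over PSBO2 (1.73) and lowest for PSAE1 over PSAE2 (-1.37).

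Other genes of photosynthesis fell along with the 43. Beside the counts in this and the later lists, 12.8% of all genes were called lower and 8.78% higher in clf swn. In siFIE the shares were 3.19% and 4.51%. Of 11 genes of electron transport and the chloroplast ATP synthase 8 fell in clf swn and 0 rose, with a median of -1.92, and 0 were called in siFIE, with a median of -0.54. Among them both plastocyanin genes fell in clf swn, PETE2 (DRT112 in the annotation) by 6.07-fold and PETE1 by 6.60-fold, as did LFNR2, a ferredoxin-NADP reductase, by 3.78-fold and ATPG, an ATP synthase subunit, by 3.86-fold. Of 11 genes of carbon fixation 9 fell in clf swn and 0 rose (median -2.15), and 1 fell in siFIE (median -0.47). The small subunits of Rubisco changed unevenly: RBCS1B fell 54.3-fold, RBCS2B 30.5-fold and RBCS3B 9.34-fold in clf swn, and RBCS1A changed by -0.40 (limma adjusted p = 0.015, not called). CFBP1, a fructose bisphosphatase, fell 6.09-fold. RBCS1B was the gene called in siFIE (log2 -1.03 ± 0.28, adjusted p = 0.03).

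Of 14 genes of chlorophyll synthesis 12 were called lower in clf swn (median -1.45) and 3 in siFIE (median -0.60), and the estimates of all 14 were below 0 in both mutants. PORC, a protochlorophyllide oxidoreductase, fell by 9.67-fold in clf swn, against 2.23-fold in siFIE. Of the magnesium chelatase subunits CHLI2 fell 5.78-fold, CHLI1 2.89-fold and CHLH (GUN5) 2.87-fold in clf swn, and of these CHLI2 alone was called in siFIE, at 2.26-fold. The third gene called in siFIE was PORA, 2.61-fold lower there. Of 4 genes that carry antenna proteins to the thylakoid 2 fell in clf swn (median -1.01) and 1 in siFIE (median -0.80): CPSRP43, the antenna-specific subunit of the chloroplast signal recognition particle, was 8.04-fold lower in clf swn and 2.25-fold lower in siFIE, and CPFTSY, its receptor, 2.29-fold in clf swn. CPSRP54 and ALB3 changed by -0.82 and -0.73 in clf swn and were not called.

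Of 11 regulators of nuclear photosynthesis genes 6 fell and 1 rose in clf swn (median -1.25) and 6 fell and 0 rose in siFIE (median -1.05). GLK1 (GPRI1 in the annotation) and GLK2, the transcription factors that activate antenna and chlorophyll genes, had signals of 4008 ± 651 and 5497 ± 453 in clf swn, 13900 ± 670 and 13407 ± 1914 in siFIE and 31239 ± 2578 and 31521 ± 3370 in Col (SD, n = 3 each). Their falls were 7.85-fold and 5.73-fold in clf swn, and in siFIE 2.24-fold and 2.36-fold. PIF4, a phytochrome-interacting factor, was lower by 5.41-fold in clf swn and by 2.26-fold in siFIE, and SIG2, a sigma factor of the plastid RNA polymerase, fell 2.63-fold in clf swn. The regulator that rose in clf swn was CGA1, a GATA factor (log2 1.21 ± 0.29, limma adjusted p = 0.0072), named after its value was seen.

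A list of 11 further photosystem-associated genes was mixed. In clf swn 6 fell and 2 rose (median -1.13), and in siFIE 2 fell and 1 rose (median -0.64). LIL3:1, a light-harvesting-like protein of chlorophyll synthesis, fell 4.05-fold in clf swn, with a fall of 2.02-fold in siFIE, PSBTN, a small photosystem II subunit, 4.74-fold in clf swn, and STN7, the kinase that phosphorylates LHCII, 2.99-fold in clf swn. The genes that rose encode early light-induced proteins, stress-inducible relatives of the antenna: ELIP2 rose 8.94-fold in clf swn (log2 3.16 ± 0.21, limma adjusted p = 2e-06), with a rise of 2.21-fold in siFIE, and ELIP1, named after its value was seen, 17.9-fold in clf swn (adjusted p = 1e-05), with a change of 0.01 in siFIE.

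**Figure D5:**
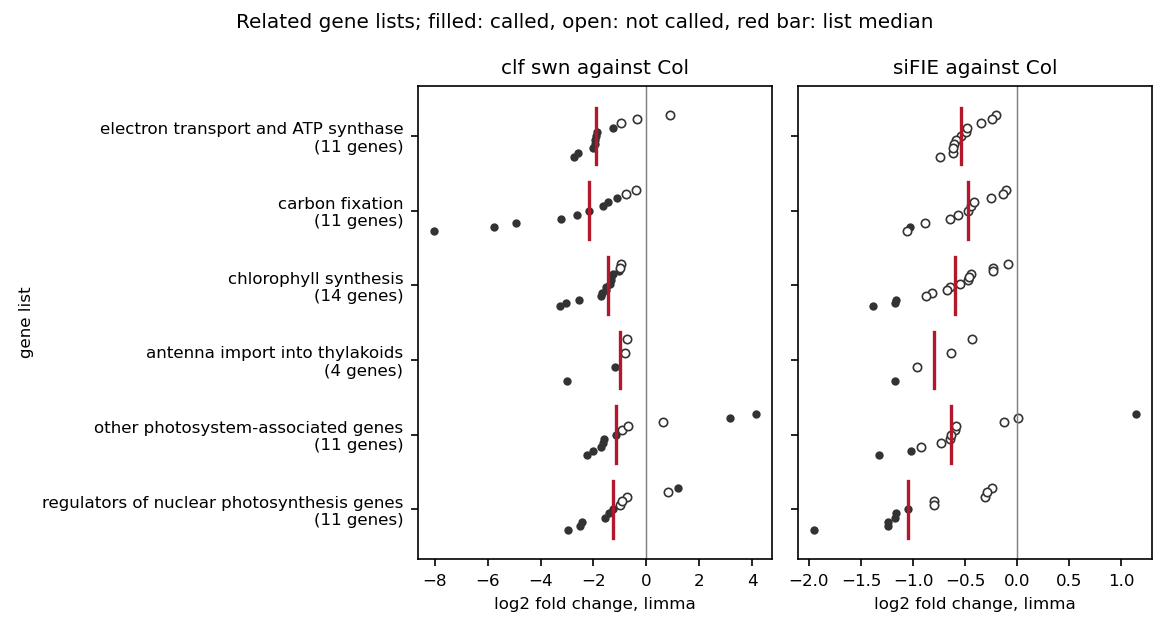
Log2 fold change of each gene of 6 related lists in clf swn against Col (left) and siFIE against Col (right, on its own narrower axis); filled points were called, open points were not, and red bars are list medians. In clf swn the medians run from -2.15 for carbon fixation to -1.01 for antenna import, and the points right of 2 are ELIP1 and ELIP2.

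Embryo and seed markers moved with these falls, and other tissue markers were mixed. Of 8 embryo and seed markers 8 rose in clf swn (median 9.44) and 5 in siFIE (median 2.38). The summed signal of the 8 was 283590 to 298640 on the clf swn arrays, 2431 to 5124 on the siFIE arrays and 445 to 602 on the Col arrays. In that sum OLEO1 had the same signal, 63919, on all 3 clf swn arrays. None of the 8 was at 0 on any array, since every probe has a background signal. LEC1 and CRU2, at mean signals of 37.8 and 30.4 in siFIE against 34.4 and 27.8 in Col, were not called in siFIE. Nor was FUS3, which was lower there, at 61.9 against 110 in Col (log2 -0.78 ± 0.23, limma adjusted p = 0.039). Of 6 root markers 3 fell in clf swn, EXPA7, EXPA18 and COBL9 (SHV2 in the annotation) of root hairs, and 0 rose. The other 3 were higher on every clf swn array than on any Col array, as 30.0% of all genes were, and were not called. They changed by 0.58 (SCR, limma adjusted p = 0.0015), 0.48 (RHD6, adjusted p = 0.11) and 0.20 (SHR, adjusted p = 0.27). In siFIE 0 root markers were called; their summed signal was 14464 to 18308 in clf swn, 14901 to 17353 in siFIE and 19782 to 21423 in Col. Of 5 epidermis and vascular markers 1 fell in clf swn, SUC2 of the phloem (3.69-fold). IRX3, the other vascular gene, changed by -0.92 in clf swn (limma adjusted p = 0.00035, not called). The epidermal genes changed by 0.15 (KCS10), 0.19 (ATML1) and 0.09 (PDF1), and the list median was 0.09. The summed signal of the 5 markers was 111910 to 128090 in clf swn, 99100 to 113590 in siFIE and 123180 to 124940 in Col. Of 4 senescence markers 1 fell and 1 rose in clf swn and 2 rose in siFIE, and their summed signal was 5568 to 6365 in clf swn, 14807 to 18946 in siFIE and 4837 to 5742 in Col. The part of a changed make-up of tissues in the falls of the 43 genes was not tested.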

How the data were processed

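Total RNA of whole seedlings was hybridised to 9 NimbleGen arrays of 72000 probes, 3 per genotype. The authors deposited the linear, unnormalized scanner intensity of each probe, written by NimbleScan 2.4.31, and 1 linear intensity a gene. For the gene values the submitters' notes give RMA, and the sources used here do not name its software. The RMA values of the single arrays and of the series table were identical. RMA subtracts a modelled background, so folds of very dim genes depend on it, and probes near the scanner's upper limit can understate a change.

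Here limma 3.58.1 (R 4.3.3) was run on log2 RMA values of all 30361 genes (3 group means, 1 spread from 9 arrays, two-sided, Benjamini-Hochberg over all genes). Genes were called at an adjusted p under 0.05 and more than 2-fold. The study's methods give the same fold with 95% confidence and name no correction. Paralogue ratios were tested with an exact permutation test (scipy 1.17.1, Python 3.11.15). The fit was tested on simulated data: of genes changed 3-fold it called 86% for clf swn against Col and 80% for siFIE against Col. Of genes changed 2-fold it called 32% and 26%. A true 2-fold change lies at the fold threshold itself, which limits the share that can be called. The pools are separate samples, and their number limits the precision. Where nothing says that pools came from separate sowings, p-values measure only the spread between these pools.

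The 43 genes and the lists were chosen with earlier results of these data known. Of 95 listed genes 91 were used; TIP41, SAND, EF1A and PETM were left out because the annotation gave their locus no such symbol. Symbols came from the RefSeq annotation of TAIR10.1, and its coordinates were not used. Of the genes, values of every array are given for the 3 largest changes and the smallest in each class in clf swn. They are also given for every gene called in siFIE or called up, and for every gene whose probes moved apart in clf swn. Of each related list up to 4 genes with the smallest p are named. Genes named outside this rule are RBCS1A, PORA, CGA1, ELIP1, OLEO1, LEC1, FUS3, RHD6, SHR and PDF1. Alternatives were other sources and normalizations of the gene values, a filter on dim genes, fits on 2 groups, no fold threshold, unadjusted p, the replicate number as a block, and leaving out each array.

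Same-numbered arrays did not deviate together (r = -0.164 to 0.169 over 9 pairs, 1 of them over 0.1). By a slide number inferred from the image identifiers, no 2 arrays shared a slide. The sample titles name no slide, so this inference could not be checked.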

Additional observations from a re-analysis of the deposited data

Results flagged for a closer look

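LHCB4.3 was singled out because its changes in the mutants had opposite signs and differed from each other. It was higher in clf swn than in siFIE by 1.21 ± 0.14 on the log2 scale (limma adjusted p = 0.00011), on 3 of 3 clf swn arrays against every siFIE array, with changes against Col of 1.05 in clf swn and -0.16 in siFIE.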

How the results depend on the processing

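Each change of the 17 genes with values per array kept its direction under every alternative run, except the uncalled difference of LHCB1.1 between the mutants (0.04), which ran down to -0.04 when single arrays were left out. No value per gene rests on a depth, and what limits these arrays is brightness: probes near the scanner's limit in Col, and signals at the dim end in the mutants.

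For clf swn against Col the 37 falls stood at 37 to 38 when single arrays were left out, and the 1 rise, LHCB4.3, was lost (0 called) in all 4 fits on probe signals and ranged from 0 to 1 when single arrays were left out, lost without pool 2 of Col or of clf swn. The median of the 43 genes was -1.97 on probe signals with normexp and quantile normalization or median polish, -1.94 without background correction, -1.94 with median scaling and -2.07 without dim genes (range without single arrays -2.11 to -1.99). The antenna median was -2.17 with quantile normalization or median polish, -1.94 without background correction and -2.23 with median scaling (without single arrays -2.46 to -2.35). The photosystem II median was -1.58 with median scaling.

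For siFIE against Col the 7 falls became 3 on probe signals, all 3 of the antenna, with quantile normalization, with median polish and without background correction, and 27 with no fold threshold, of which 13 were antenna, 8 photosystem I and 6 photosystem II genes. The 1 photosystem I call became 0 in those fits on probe signals and 2 with median scaling, and ranged from 0 to 2 when single arrays were left out, 0 without pool 3 of Col or pool 2 of siFIE and 2 without pool 1 of Col. Median scaling moved the medians to -0.71 for the 43 genes, -0.77 for the antenna, -0.74 for photosystem I and -0.60 for photosystem II, and the median of all genes to -0.08.

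For clf swn against siFIE the genes called higher became 2 with no fold threshold, and the median was -1.48 with quantile normalization, -1.46 without background correction and -1.31 with median scaling. LHCB1.1, LHCB4.1 and LHCB7 were called in some comparison on RMA values and in none on normexp-corrected probe signals with quantile normalization.

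Over the array, calls in clf swn against Col fell to 2364 lower and 1571 higher without background correction, against 3896 and 2666 on RMA values, and in siFIE against Col to 443 and 683, against 968 and 1370. With the replicate number as a block the calls were 37 lower in clf swn and 7 in siFIE, so the block changed no count of the 43 genes; the numbers pair no samples. A slide block was not run, since by the slide number inferred from the image identifiers no slide held more than 1 array.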

Other observations

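The array also held 67 loci of the plastid genome, recognised by their ATCG identifiers and looked at after the other results were seen; the annotation gives no names for these identifiers. In clf swn 17 of the 67 were called lower than in Col (12.8% of all genes were) and 0 higher (limma), the median change was -0.70 on the log2 scale and 57 were lower on every array (26.4% of all genes were). In siFIE 0 were called in either direction, 8 were lower at an adjusted p under 0.05 without the fold threshold, near the 10.0% of all genes, and the median was -0.30. Their summed signal was 1180500 to 1457900 on the clf swn arrays, 1561000 to 1810600 on the siFIE arrays and 1884800 to 1966700 on the Col arrays. How well plastid transcripts, which mostly lack poly(A) tails, were labelled is not given in the sources used here.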
